A study of Mus musculus with 18 samples.

Results

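The genes described here are 32 targets of the transcription factor p53, taken by symbol from the 26143 genes of the deposited table. The list holds names of known targets and applies no threshold to a level, but it was drawn up with earlier results of these libraries known. All 32 passed the filter on low values, which left 15235 genes for testing. RNA was sequenced from mouse squamous epithelium in 18 libraries of 4 groups. WT (n = 3) is wild type epithelium of the esophagus. The other groups come from tongue: p53 (n = 3) is heterozygous LSL-p53+/R172H, E20 (n = 6) is LSL-PIK3CAH1047R, and E20/p53 (n = 6) is LSL-PIK3CAH1047R;LSL-p53+/R172H;K14-Cre. LSL is a stop element between loxP sites, which blocks an allele unless Cre recombinase cuts it out, and the keratin 14 promoter of K14-Cre drives Cre in basal epithelial cells. Only the label of E20/p53 names Cre. 4NQO, a carcinogen that damages DNA, stands in the study title, but the labels do not say which libraries were exposed to it, and they give no age, sex or number of animals. Whether libraries within a group stem from different animals is not stated, so the spread behind every p-value below may be technical.

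p53 is held low by the ubiquitin ligase MDM2 in unstressed cells and accumulates after DNA damage or oncogene activity. It then binds paired half-sites near its targets and raises genes that stop the cell cycle, repair DNA, adjust metabolism or cause apoptosis. R172H changes the DNA-binding domain of mouse p53 and corresponds to human R175H, a frequent change in tumours of the head and neck, while H1047R activates the catalytic subunit of PI3-kinase. MDM2 is itself a p53 target, which closes a feedback loop.

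The libraries held 14592044 to 18176060 counted reads. Levels below are CPM, reads set relative to the authors' scaled library totals, and are not divided by gene length, so they are compared between libraries and not between genes. The libraries lay in 6 sets of 3, which are WT 1 to 3, p53 1 to 3, E20 1 to 3, E20 4 to 6, E20/p53 1 to 3 and E20/p53 4 to 6. Pairs of libraries inside a set had a Pearson r across genes of 0.991 to 0.994, and pairs joining both sets of a group had 0.859 to 0.944, as a description, since genes are not independent replicates. The sets were seen in the data, so values are given for each set and no test was made between sets. The summed level of 10 squamous epithelial markers was 1050 to 1060 CPM in E20/p53 1 to 3, 121 to 126 CPM in WT, 87.7 to 106 CPM in E20 1 to 3 and 3.32 to 6.90 CPM in the other 9 libraries. Krt5 and Krt14, which define basal epithelium, were at most 0.0677 and 0.238 CPM in E20 4 to 6 and E20/p53 4 to 6, and at most 0.201 and 0.847 CPM in p53, so these 9 libraries hardly show the labelled tissue through these genes. In WT Krt5 was likewise at most 0.120 CPM, while Krt14 was 12.5 to 14.03 CPM. The markers listed at 0 in every library of a set were Krt4, Krt13, Cdh1 and Epcam in E20 4 to 6, Krt5, Krt4, Krt15 and Epcam in E20/p53 4 to 6, Krt15 and Dsg3 in p53, Krt4 and Dsg3 in WT and Krt4 in E20 1 to 3. The sum of 8 fibroblast markers was 150.5 to 158 CPM in E20/p53 1 to 3, 1488 to 1607 CPM in WT and 8841 to 22090 CPM in the other libraries. In WT it was mostly Col1a2, at 1305 to 1420 CPM. Skeletal muscle markers summed to 2041 to 2189 CPM in p53, 656 to 744.5 CPM in E20 and E20/p53 4 to 6, and 4.69 to 6.90 CPM in WT and E20/p53 1 to 3. In E20 this sum was almost all Des, at 533 to 662 CPM, and Chrna1, at 44.2 to 154 CPM. Every other marker of that list, Myod1 and Myog among them, was at most 1.94 CPM in E20. In E20/p53 4 to 6 Des and Chrna1 also made up most of it, with Myod1 at 8.56 to 9.95 CPM. The part of these markers in the results below was not tested, and fewer cells of a type cannot be told apart from less RNA per cell.

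Promoter sequence was read for the 24 members that a RefSeq table of the build GRCm38.p6 holds, in windows from 250 bases before to 50 bases after each start. The members not found there were Pmaip1, Trp53inp1, Zmat3, Rrm2b, Tnfrsf10b, Xpc, Ddb2 and Gls2. An exact p53 half-site, 10 bases long and searched on both strands, was present in 10 of 34 member windows, against 8.36% of all 32851 windows. 2 exact half-sites with at most 13 bases between them occurred in 1 of 34 member windows, against 0.0731% of all windows. That window belongs to the upstream start of Cdkn1a. The window of the other Cdkn1a start, chr17:29093519-29093818, held no half-site and no element of the looser search below. The upstream window, chr17:29090729-29091028 on the plus strand, is shown in full. It has both half-sites, and the set means of the gene ran from 5.08 to 567 CPM. Capitals mark the exact half-sites.
Cdkn1a: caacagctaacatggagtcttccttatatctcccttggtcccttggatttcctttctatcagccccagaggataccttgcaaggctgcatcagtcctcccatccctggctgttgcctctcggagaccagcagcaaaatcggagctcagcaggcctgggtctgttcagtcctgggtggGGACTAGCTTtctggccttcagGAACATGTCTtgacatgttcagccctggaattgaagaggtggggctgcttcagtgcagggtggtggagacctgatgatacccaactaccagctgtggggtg

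A looser search took an element as 2 half-sites with 0 or 1 base between them and at most 3 mismatches, a rule set after the windows had been seen. It found an element in 9 of the 24 members (10 of 34 windows), against 2.82% of all windows. The sequences of 8 of them are shown with 20 bases on either side, and capitals mark the element. Other members discussed at length below, Psrc1, Phlda3, Eda2r, Ercc5 and Ephx1 among them, had a window but no element. The closest matches, with 1 mismatch each, were in Cdkn1a (chr17:29090908-29090967, plus strand), Ccng1 (chr11:40755442-40755501, minus strand) and Gtse1 (chr15:85859925-85859984, plus strand). Bax (chr7:45467059-45467119, minus strand) and Ckap2 (chr8:22185983-22186042, minus strand) had 2 mismatches. Aen (chr7:78895917-78895976), Bbc3 (chr7:16309466-16309525) and Sesn1 (chr10:41887246-41887305), all on the plus strand, had 3.
Cdkn1a: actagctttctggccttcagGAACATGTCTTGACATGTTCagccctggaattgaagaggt
Ccng1: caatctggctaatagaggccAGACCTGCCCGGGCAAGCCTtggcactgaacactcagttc
Gtse1: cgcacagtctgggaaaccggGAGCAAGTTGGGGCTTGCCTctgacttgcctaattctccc
Bax: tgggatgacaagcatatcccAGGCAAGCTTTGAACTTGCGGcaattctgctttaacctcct
Ckap2: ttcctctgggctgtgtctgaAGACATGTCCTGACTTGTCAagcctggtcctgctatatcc
Aen: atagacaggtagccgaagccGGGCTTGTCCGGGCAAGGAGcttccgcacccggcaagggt
Bbc3: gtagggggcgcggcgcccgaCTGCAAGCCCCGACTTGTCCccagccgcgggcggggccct
Sesn1: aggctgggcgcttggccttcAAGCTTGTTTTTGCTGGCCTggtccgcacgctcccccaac
The ninth, Dcxr, is named only. These matches describe letters in a window and are no evidence of binding, and p53 sites in introns lie outside the windows.

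E20 1 to 3 held the highest mean for 22 of 32 members, against 11.9% of all tested genes. The highest mean lay in WT for Pmaip1, Plk3, Xpc and Ddb2, in E20 4 to 6 for Rrm2b, Ercc5 and Apaf1, in E20/p53 1 to 3 for Sesn1 and Gls2, and in p53 for Gtse1. The lowest mean lay in E20/p53 1 to 3 for 10 members, in WT for 9 and in p53 for 7, against 18.7%, 27.0% and 12.7% of all tested genes.

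**Figure D1:**
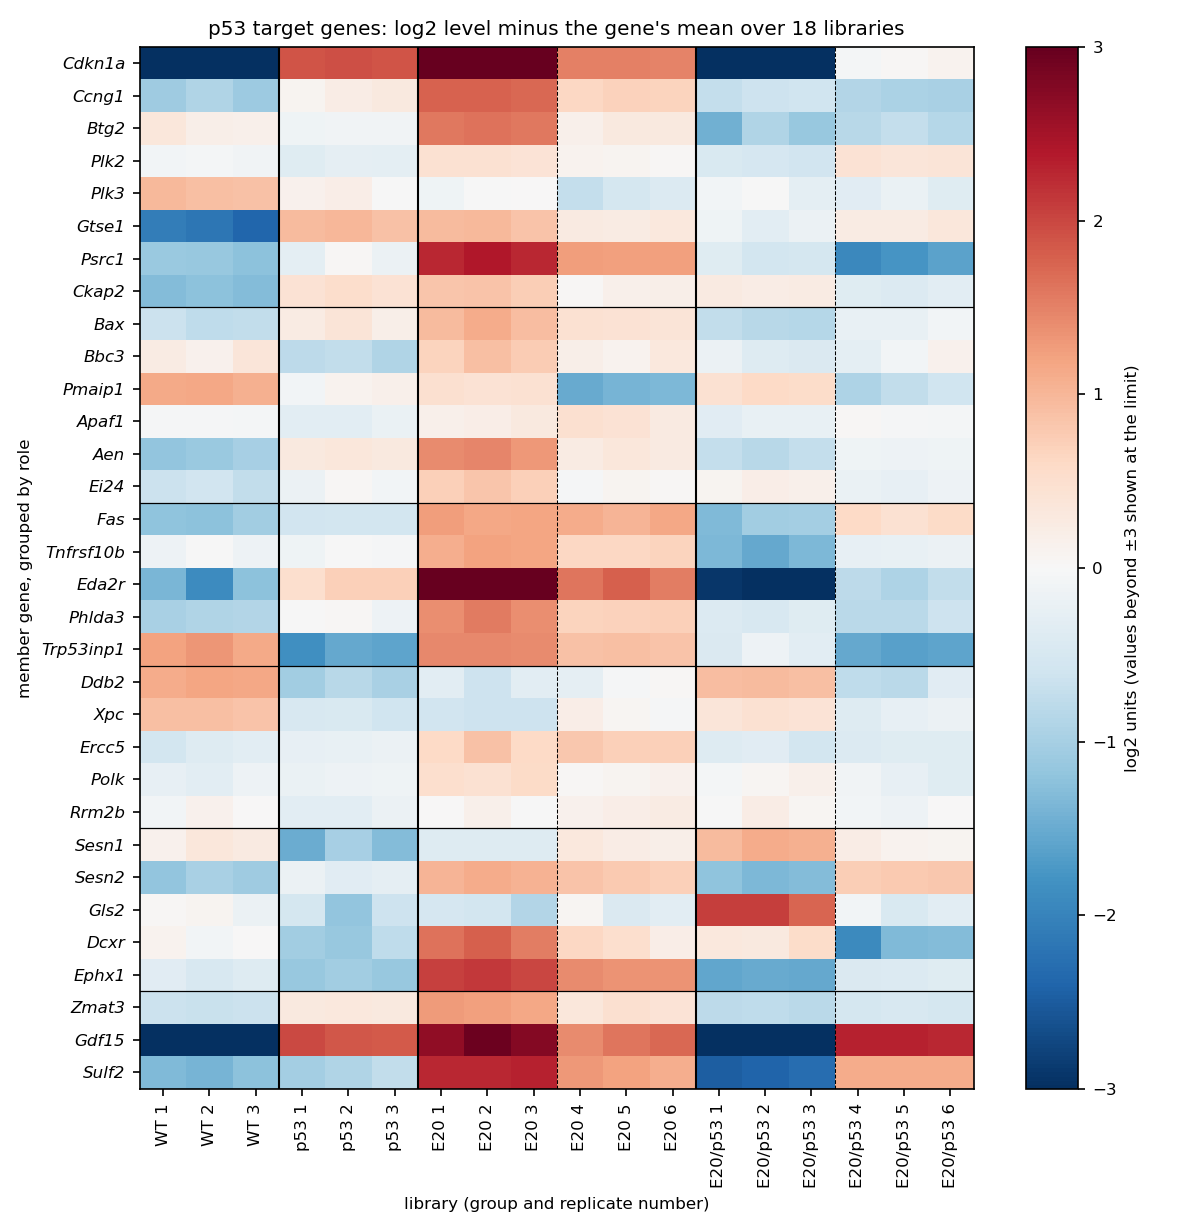
Log2 level of each of the 32 genes in each of the 18 libraries, minus the gene's mean over all libraries (colour, log2 units). Rows are grouped by role from cell cycle at the top to secreted and RNA-binding proteins at the bottom, solid lines part the groups and dashed lines part the sets of E20 and E20/p53. E20 1 to 3 is the highest set for 22 of 32 genes.

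E20/p53 was compared with E20, where both groups carry PIK3CAH1047R and the label of E20/p53 adds the R172H allele and K14-Cre. The groups also differed in Xist, a noncoding RNA that coats the silenced X, which had set means of 893 and 1303 CPM in E20 and of at most 0.826 CPM in every other set. The part of what Xist marks in the differences between E20 and any other group was not tested and cannot be told apart from the alleles. 24 of 32 members were lower in E20/p53 and 2 were higher, by limma with Benjamini-Hochberg adjustment over all tested genes and an adjusted p under 0.05. Over all 15235 tested genes 19.6% were lower and 23.0% were higher. The members' median log2 difference was -1.19, and that of all tested genes was 0.05. In 15 of 32 members every E20/p53 library lay below every E20 library, against 11.2% of all tested genes. When each set of 3 was left out in turn, 16 of the 24 stayed called. The others were Ei24, Gdf15, Polk, Gtse1, Dcxr, Sulf2, Ckap2 and Sesn2. On 6 set means in place of 18 libraries, limma called 0 of 32 members and 0 of all tested genes. An unadjusted p under 0.05 was found for 13 of 32 members, against 6.39% of all tested genes.

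Genes of the cell cycle and division came first. Of 8 such members 6 were lower in E20/p53 than in E20, with a median log2 difference of -1.23. Cdkn1a (chr17:29090976-29100727, GENCODE M21 on mm10) encodes p21, an inhibitor of cyclin-dependent kinases and the classical p53 target. Its level was 557, 598 and 547 CPM in E20 1 to 3, and 173, 173 and 169 CPM in E20 4 to 6. In E20/p53 it was 7.10, 6.39 and 7.25 CPM in libraries 1 to 3, and 57.5, 61.8 and 65.0 CPM in libraries 4 to 6. The highest E20/p53 library thus lay well under the lowest E20 library. The log2 difference was -3.92 ± 0.63 (SE, adjusted p = 1.3e-04, limma), computed on mean log2 values. It was -2.35 without E20/p53 libraries 1 to 3 and -5.49 without libraries 4 to 6.

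Ccng1 encodes cyclin G1, which recruits a phosphatase to MDM2. It stood at 481, 482 and 471 CPM in E20 1 to 3 and at 220.0, 229 and 225 CPM in E20 4 to 6, against 86.4, 92.8 and 94.3 CPM in E20/p53 1 to 3 and 76.9, 73.3 and 72.4 CPM in E20/p53 4 to 6. Both E20/p53 sets were therefore near each other for this gene, unlike for Cdkn1a. The log2 difference was -1.99 ± 0.20 (SE, adjusted p = 1.2e-06, limma). Psrc1, a microtubule-associated protein of the spindle, was at 83.4, 92.4 and 82.8 CPM in E20 1 to 3 and 41.6, 40.9 and 40.4 CPM in E20 4 to 6, and at 13.5, 11.8 and 11.9 CPM in E20/p53 1 to 3 and 4.53, 5.00 and 5.66 CPM in E20/p53 4 to 6. It fell by 2.90 ± 0.30 log2 units (SE, adjusted p = 1.5e-06, limma), and here E20/p53 4 to 6 was the lower set. Btg2, an antiproliferative cofactor of messenger RNA deadenylation, ranged from 21.1 to 58.4 CPM in E20 and from 6.85 to 11.5 CPM in E20/p53, with a log2 difference of -1.90 ± 0.26 (SE, adjusted p = 2.3e-05, limma).

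The remaining members of this role bear on mitosis and showed smaller differences. Gtse1, a microtubule-associated protein of the G2 and S phases that also restrains p53, was 70.1 ± 13.1 CPM (SD, n = 6) in E20/p53 and 105 ± 25.8 CPM (SD, n = 6) in E20, with a log2 difference of -0.56. Ckap2, which stabilises spindle microtubules, was 84.8 ± 19.6 CPM (SD, n = 6) against 122 ± 31.7 CPM (SD, n = 6), with a log2 difference of -0.52. Libraries of both groups overlapped for both genes, and neither call held through every set left out. The polo-like kinases Plk2 and Plk3 did not pass the test, with log2 differences of -0.32 (adjusted p = 0.155, limma) and 0.08 (adjusted p = 0.61, limma), and both changed sign when a set was left out. Of 12 mitosis genes 8 were higher and 1 was lower in E20/p53, and their summed level was 2461 to 3042 CPM there and 2152 to 2262 CPM in E20. The part of cell division in the levels of Gtse1, Psrc1 and Ckap2 was not tested.

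**Figure D2:**
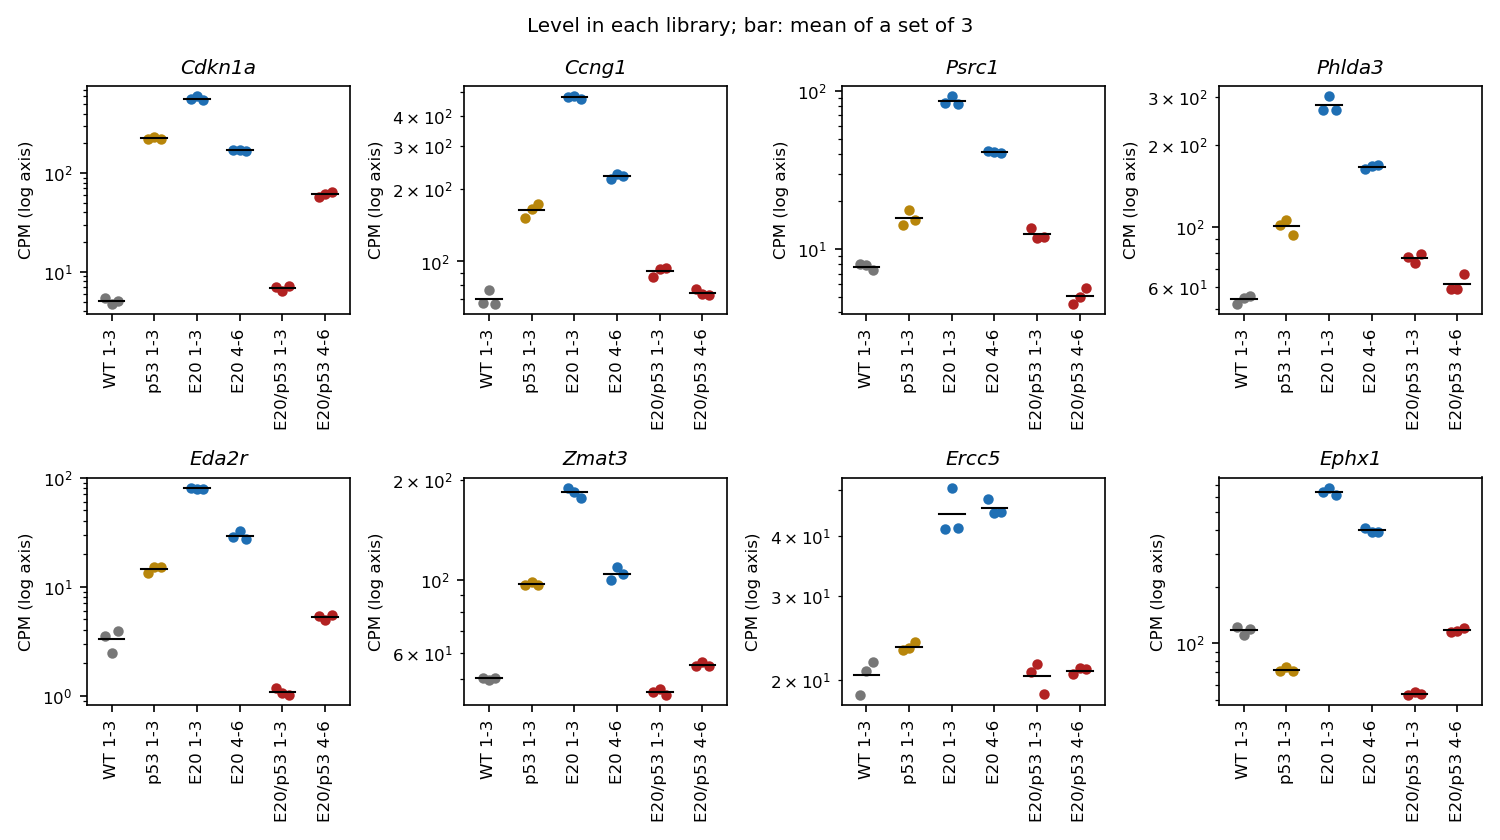
CPM on a log axis in each library for 8 members: points are libraries, bars are means of a set of 3, and colours are the 4 groups (grey WT, gold p53, blue E20, red E20/p53). In every panel all 6 red points lie below all 6 blue points. That held for 15 of 32 members, the 8 shown among them, against 11.2% of all tested genes. Cdkn1a differs between the E20/p53 sets (6.91 and 61.4 CPM), while Ercc5 lies between 18.7 and 21.6 CPM in both.

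Among 6 members of the mitochondrial route to apoptosis 5 were lower in E20/p53. Bax (chr7:45461697-45466898) encodes the pore-forming protein of the outer mitochondrial membrane. Its level was 245, 274 and 241 CPM in E20 1 to 3 and 172.1, 170.4 and 164 CPM in E20 4 to 6, and it was 75.9, 71.0 and 69.8 CPM in E20/p53 1 to 3 and 108.5, 109 and 118 CPM in E20/p53 4 to 6. All 6 E20/p53 libraries lay below the E20 libraries, and the log2 difference was -1.20 ± 0.16 (SE, adjusted p = 1.8e-05, limma). Aen, a nuclease that takes part in DNA fragmentation, fell from 118.5 ± 48.0 CPM (SD, n = 6) to 46.1 ± 10.6 CPM (SD, n = 6), a log2 difference of -1.29 ± 0.23 (SE, adjusted p = 2.9e-04, limma). In E20 it was 153 to 170.0 CPM in libraries 1 to 3 but 73.3 to 77.5 CPM in libraries 4 to 6.

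Apaf1, the scaffold of the apoptosome, differed less and also without overlap, at 46.2 ± 4.497 CPM (SD, n = 6) in E20/p53 and 63.2 ± 5.62 CPM (SD, n = 6) in E20 (log2 difference -0.45 ± 0.07 SE, adjusted p = 1.0e-04, limma). Bbc3, which encodes the BH3-only protein PUMA, ranged from 5.90 to 8.76 CPM in E20/p53 and from 8.61 to 15.2 CPM in E20, with a log2 difference of -0.70 ± 0.15 (SE, adjusted p = 0.00122, limma). Ei24, a protein of the endoplasmic reticulum, had a log2 difference of -0.42 (adjusted p = 0.0313, limma), and it lost its call without any 1 of E20 1, E20 2, E20 3, E20/p53 4, E20/p53 5 or E20/p53 6. Pmaip1, which encodes the BH3-only protein NOXA, did not follow the other BH3-only gene. It was 17.4, 16.8 and 17.2 CPM in E20 1 to 3 and 17.1, 18.8 and 18.3 CPM in E20/p53 1 to 3, and it was 4.33 to 4.88 CPM and 6.49 to 8.23 CPM in libraries 4 to 6 of those groups. The sets thus differed more than the groups, and its log2 difference was 0.37 (adjusted p = 0.492, limma).

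All 5 members among death receptors and other death signals were lower in E20/p53, with a median log2 difference of -1.71. Eda2r (chrX:97333840-97377216), a receptor of the tumour necrosis factor family, was 80.4, 78.6 and 79.1 CPM in E20 1 to 3 and 28.5, 32.2 and 27.1 CPM in E20 4 to 6. It was 1.17, 1.07 and 1.01 CPM in E20/p53 1 to 3 and 5.36, 4.89 and 5.53 CPM in E20/p53 4 to 6. This log2 difference of -4.29 ± 0.48 (SE, adjusted p = 2.9e-06, limma) was the lowest among the 32 members. Eda2r lies on the X chromosome, and the part of the difference in Xist in its level was not tested.

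Fas, the receptor of Fas ligand, was 44.7 to 52.8 CPM in all 6 E20 libraries, 8.70, 10.7 and 10.8 CPM in E20/p53 1 to 3, and 33.5, 30.5 and 33.0 CPM in E20/p53 4 to 6. Its log2 difference was -1.44 ± 0.30 (SE, adjusted p = 0.00126, limma), and -0.60 without E20/p53 libraries 1 to 3. Tnfrsf10b, the mouse receptor of the ligand TRAIL, was 54.2 ± 10.9 CPM (SD, n = 6) in E20 and 17.7 ± 7.67 CPM (SD, n = 6) in E20/p53, with a log2 difference of -1.71 ± 0.24 (SE, adjusted p = 2.8e-05, limma). Both receptors were lower in E20/p53 1 to 3 than in E20/p53 4 to 6.

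Phlda3 opposes AKT by binding membrane phosphoinositides through its PH domain. It was 269, 301 and 269 CPM in E20 1 to 3, 163, 167 and 168 CPM in E20 4 to 6, and 58.9 to 79.6 CPM over the 6 E20/p53 libraries. The log2 difference was -1.65 ± 0.15 (SE, adjusted p = 3.9e-07, limma). Trp53inp1, a stress protein of the nucleus and of autophagosomes, was 124 to 127.5 CPM in E20 1 to 3 and 84.7 to 87.2 CPM in E20 4 to 6. In E20/p53 it was 34.6 to 42.3 CPM in libraries 1 to 3 and 15.1 to 16.1 CPM in libraries 4 to 6. Its log2 difference was -2.09 ± 0.25 (SE, adjusted p = 7.1e-06, limma).

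Genes of DNA repair and nucleotide supply were the role with the smallest median log2 difference, -0.11, and 2 of 5 members were lower. Ercc5 (chr1:44147744-44181260) encodes XPG, the endonuclease that cuts 3′ of the lesion in nucleotide excision repair. It was 41.5, 50.5 and 41.5 CPM in E20 1 to 3 and 47.9, 44.7 and 44.8 CPM in E20 4 to 6, against 18.7 to 21.6 CPM over the 6 E20/p53 libraries. The groups were parted without overlap and the sets within each group were alike. The log2 difference was -1.12 ± 0.06 (SE, adjusted p = 1.8e-09, limma), which is the smallest adjusted p of the members in this comparison, and it ranged from -1.15 to -1.10 when each set was left out.

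Polk, a polymerase for synthesis past lesions, was 27.9 ± 3.70 CPM (SD, n = 6) in E20/p53 and 36.7 ± 6.05 CPM (SD, n = 6) in E20, a log2 difference of -0.39 ± 0.11 (SE, adjusted p = 0.00895, limma). Ddb2 and Xpc, which recognise lesions at the first step of excision repair, did not pass the test at log2 differences of 0.40 and 0.34 (adjusted p = 0.292 and 0.135, limma). Both were higher in E20/p53 1 to 3, at 15.1 to 15.6 CPM and 30.7 to 32.7 CPM, than in E20/p53 4 to 6, at 4.60 to 6.39 CPM and 18.3 to 21.3 CPM. Without E20/p53 libraries 1 to 3 Ddb2 was called lower, at -0.38 (adjusted p = 0.0426, limma), and without libraries 4 to 6 it was called higher, at 1.18 (adjusted p = 1.4e-06, limma). Rrm2b, the p53-inducible small subunit of ribonucleotide reductase, stayed between 21.3 and 28.2 CPM in all 12 libraries (log2 difference -0.11, adjusted p = 0.236, limma).

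The metabolic and stress members held both of the genes that were higher in E20/p53. Sesn1, a sestrin that restrains mTORC1, was 82.9, 93.2 and 89.7 CPM in E20/p53 1 to 3, 45.4 to 50.02 CPM in E20/p53 4 to 6, 32.7 to 33.2 CPM in E20 1 to 3 and 48.3 to 53.8 CPM in E20 4 to 6. Its log2 difference was 0.66 ± 0.21 (SE, adjusted p = 0.0177, limma). Gls2, the liver-type glutaminase, was 6.85, 6.78 and 5.45 CPM in E20/p53 1 to 3 and 0.817 to 1.63 CPM in the other 9 libraries of both groups. The log2 difference of 1.29 ± 0.43 (SE, adjusted p = 0.025, limma) thus rests on E20/p53 1 to 3. Without those libraries the log2 differences were 0.20 for Sesn1 and 0.16 for Gls2, and neither was called (adjusted p = 0.344 and 0.562, limma). Sesn1 and Gls2 also lost their calls without E20 libraries 1 to 3, and Gls2 without E20 libraries 4 to 6 or without E20/p53 1, E20/p53 2 or E20/p53 3 alone.

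Ephx1, the microsomal epoxide hydrolase that detoxifies reactive epoxides, was 638, 675 and 620.5 CPM in E20 1 to 3 and 414.5, 393 and 394 CPM in E20 4 to 6. It was 52.8 to 54.6 CPM in E20/p53 1 to 3 and 114, 116 and 121 CPM in E20/p53 4 to 6. All E20/p53 libraries were below all E20 libraries, with a log2 difference of -2.68 ± 0.23 (SE, adjusted p = 2.3e-07, limma). Dcxr, a carbonyl reductase of the xylulose pathway, had a log2 difference of -1.61 ± 0.41 (SE, adjusted p = 0.00511, limma), with 12.7 to 15.2 CPM in E20/p53 1 to 3, 2.74 to 4.21 CPM in E20/p53 4 to 6 and 11.95 to 36.2 CPM in E20. Sesn2, the other sestrin, was 13.1 to 14.4 CPM in E20/p53 1 to 3 and 55.4 to 58.1 CPM in E20/p53 4 to 6, against 54.8 to 72.0 CPM in E20 (log2 difference -1.18 ± 0.37 SE, adjusted p = 0.0171, limma). Without E20/p53 libraries 1 to 3 its log2 difference was -0.15, not called (adjusted p = 0.158, limma).

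Zmat3, an RNA-binding zinc finger protein, was 189, 185 and 177 CPM in E20 1 to 3, 99.5, 109.5 and 104 CPM in E20 4 to 6 and 44.7 to 56.1 CPM in E20/p53. Every E20/p53 library lay below every E20 library, and the log2 difference was -1.46 ± 0.16 (SE, adjusted p = 1.9e-06, limma). Of the secreted or extracellular members, Gdf15, a cytokine of the TGF-beta family raised by many stresses, was 0.185 to 0.337 CPM in E20/p53 1 to 3 and 23.5 to 24.4 CPM in E20/p53 4 to 6. In E20 it was 31.0, 37.7 and 32.8 CPM in libraries 1 to 3 and 13, 14.8 and 16.1 CPM in libraries 4 to 6. E20/p53 4 to 6 therefore lay between the E20 sets, and the log2 difference of -3.05 ± 1.19 (SE, adjusted p = 0.0485, limma) was 0.11 (adjusted p = 0.877, limma) without E20/p53 libraries 1 to 3. Leaving out any 1 library other than E20/p53 4, E20/p53 5 or E20/p53 6 also ended its call.

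Sulf2, an extracellular sulfatase of heparan sulfate, was 13.2, 13.7 and 15.1 CPM in E20/p53 1 to 3 and 158, 160 and 158 CPM in E20/p53 4 to 6. The E20 libraries were at 352, 353 and 361.5 CPM and at 179, 170 and 156 CPM, so that E20/p53 4 to 6 overlapped with E20 4 to 6. The log2 difference was -2.37 ± 0.65 (SE, adjusted p = 0.00757, limma) and -0.62 without E20/p53 libraries 1 to 3, where it was not called (adjusted p = 0.0595, limma). The mean of E20/p53 1 to 3 over that of E20/p53 4 to 6 was 0.0104 for Gdf15, 0.240 for Sesn2 and 0.0883 for Sulf2. The summed level of 10 targets and partners of ATF4, a stress factor that also raises Sesn2 and Gdf15, was 657 to 678 CPM in E20/p53 1 to 3, 2141 to 2238 CPM in E20/p53 4 to 6 and 1507 to 1889 CPM in E20. Its part in these levels was not tested.

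**Figure D3:**
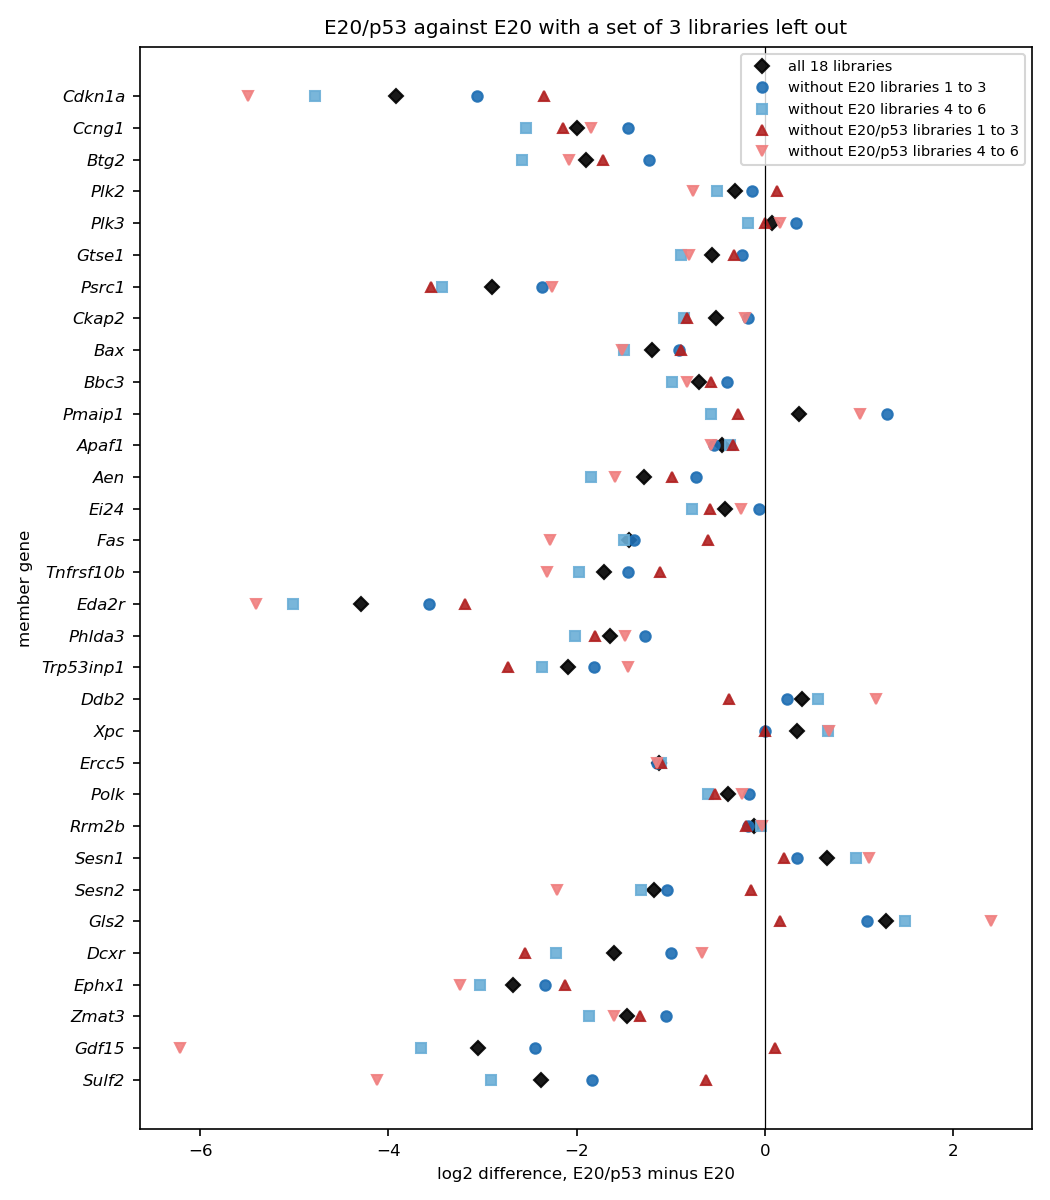
Log2 difference of E20/p53 minus E20 for each of the 32 genes, with all 18 libraries (black) and with a set of 3 E20 (blue) or E20/p53 (red) libraries left out. Ercc5 hardly moves (-1.15 to -1.10), while Gdf15 goes to 0.11 and Sesn2 to -0.15 without E20/p53 libraries 1 to 3.

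The promoter elements did not part the members by direction. Among the 9 members with an element 8 were lower and 1, Sesn1, was higher in E20/p53 than in E20. Of the 15 members with a window but no element 13 were lower and 2 were not called.

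Against p53 libraries, which carry R172H without the PIK3CA allele, the members went in both directions. In E20/p53 7 of 32 were lower and 5 were higher, and over all tested genes 12.9% were lower and 12.9% were higher, so the share higher was near that of all genes. The members' median log2 difference was -0.08, beside 0.02 for all tested genes. The 7 were Cdkn1a, Ccng1, Gtse1, Bax, Eda2r, Phlda3 and Zmat3, and all 7 were also lower against E20. The comparisons share the E20/p53 libraries, so these calls are not independent, and the matching share of all tested genes was not computed.

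Cdkn1a was 223, 232 and 223.5 CPM in p53, above each E20/p53 library, with a log2 difference of -3.45 ± 0.77 (SE, adjusted p = 0.00402, limma). Zmat3 was 96.1 to 98.5 CPM in p53 and fell by 0.95 ± 0.19 log2 units in E20/p53 (SE, adjusted p = 0.0019, limma). Gtse1 had its highest set mean in p53, at 129, 134 and 124 CPM, with a log2 difference of -0.90 (adjusted p = 0.00242, limma), and Ccng1, at 151 to 173 CPM, had -0.98 (adjusted p = 0.00892, limma). Eda2r, at 13.3 to 15.3 CPM in p53, had a log2 difference of -2.57 (adjusted p = 0.00436, limma), and Bax, at 143 to 164 CPM, had -0.76 (adjusted p = 0.00957, limma). Bax lost its call without p53 replicate 2 or without E20/p53 libraries 1 to 3, and Phlda3 lost its call in 10 of 18 fits that left out 1 library.

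Sesn1 was 15.4, 21.6 and 17.5 CPM in p53, below every E20/p53 library, and was higher in E20/p53 by 1.84 ± 0.25 log2 units (SE, adjusted p = 7.3e-05, limma). Bbc3 was lowest in p53, at 4.29 to 4.76 CPM, and higher in E20/p53 by 0.61 log2 units (adjusted p = 0.0212, limma). The other higher members were Ddb2, Gls2 and Rrm2b. Sesn1 alone among the 5 stayed called without each library in turn, and the count ranged from 1 to 7. Without E20/p53 libraries 1 to 3 the members called higher were 8, with Fas, Sulf2 and Sesn2 among them, and without libraries 4 to 6 these same 3 genes were called lower. The muscle markers named above were highest in p53, and their part in these differences was not tested.

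E20 was next set against p53, each group with 1 of the alleles. 17 of 32 members were higher in E20, against 14.5% of all tested genes, and 1 was lower, against 16.4%. In 22 of 32 members every E20 library lay above every p53 library, against 21.7% of all tested genes, and the median log2 difference was 0.63, beside -0.01 over all tested genes. All 5 death receptor and signalling genes were higher, as were 3 of 5 in DNA repair and nucleotide supply, 3 of 5 in metabolism and stress, 3 of 8 in the cell cycle, 2 of 6 in mitochondrial apoptosis and 1 of 3 in the last role. Beside these, 10 of 12 mitosis genes were lower in E20 (median log2 difference -0.54), as were 6 of 8 skeletal muscle markers (median -5.87), and Xist was at 0.172 CPM in p53. Their part in the differences was not tested.

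Ercc5 was 23.2, 23.3 and 24.0 CPM in p53 and higher in E20 by 0.94 ± 0.08 log2 units (SE, adjusted p = 3.3e-07, limma). Ephx1 was 70.7, 74.7 and 70.7 CPM in p53 and higher in E20 by 2.82 ± 0.29 log2 units (SE, adjusted p = 2.5e-06, limma). Trp53inp1 was 13.1, 15.96 and 15.6 CPM in p53, near its level in E20/p53 4 to 6, and higher in E20 by 2.81 ± 0.31 log2 units (SE, adjusted p = 5.5e-06, limma). Bbc3, Apaf1, Phlda3, Psrc1 and Sesn1 were higher by 1.30, 0.58, 1.11, 1.92 and 1.19 log2 units (adjusted p from 4.5e-05 to 0.002, limma). Cdkn1a was among the 14 members not called. Its p53 libraries lay between the E20 sets, the log2 difference was 0.47 (adjusted p = 0.693, limma), and without E20 libraries 1 to 3 it was -0.40. Plk3 was the member called lower (log2 difference -0.40, adjusted p = 0.0463, limma), and it lost that call under most alternatives.

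Without E20 libraries 1 to 3, 11 of the 17 higher members stayed called in E20 against p53, and Btg2, Tnfrsf10b, Polk, Dcxr, Sulf2 and Eda2r did not. The E20 sets differed widely. For 25 of 32 members the libraries E20 1 to 3 lay above E20 4 to 6 without overlap, against 34.8% of all tested genes, and for 4 members they lay below, against 33.1%. The ratio of the set means, 1 to 3 over 4 to 6, ran from 0.625 for Xpc to 3.70 for Pmaip1, and it was 3.31 for Cdkn1a and 2.71 for Eda2r. Between the E20/p53 sets the split had no common direction. Libraries 1 to 3 were above 4 to 6 for 13 members and below for 15, against 38.9% and 41.4% of all tested genes. The ratio there ran from 0.0104 for Gdf15 to 4.92 for Gls2.

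**Figure D4:**
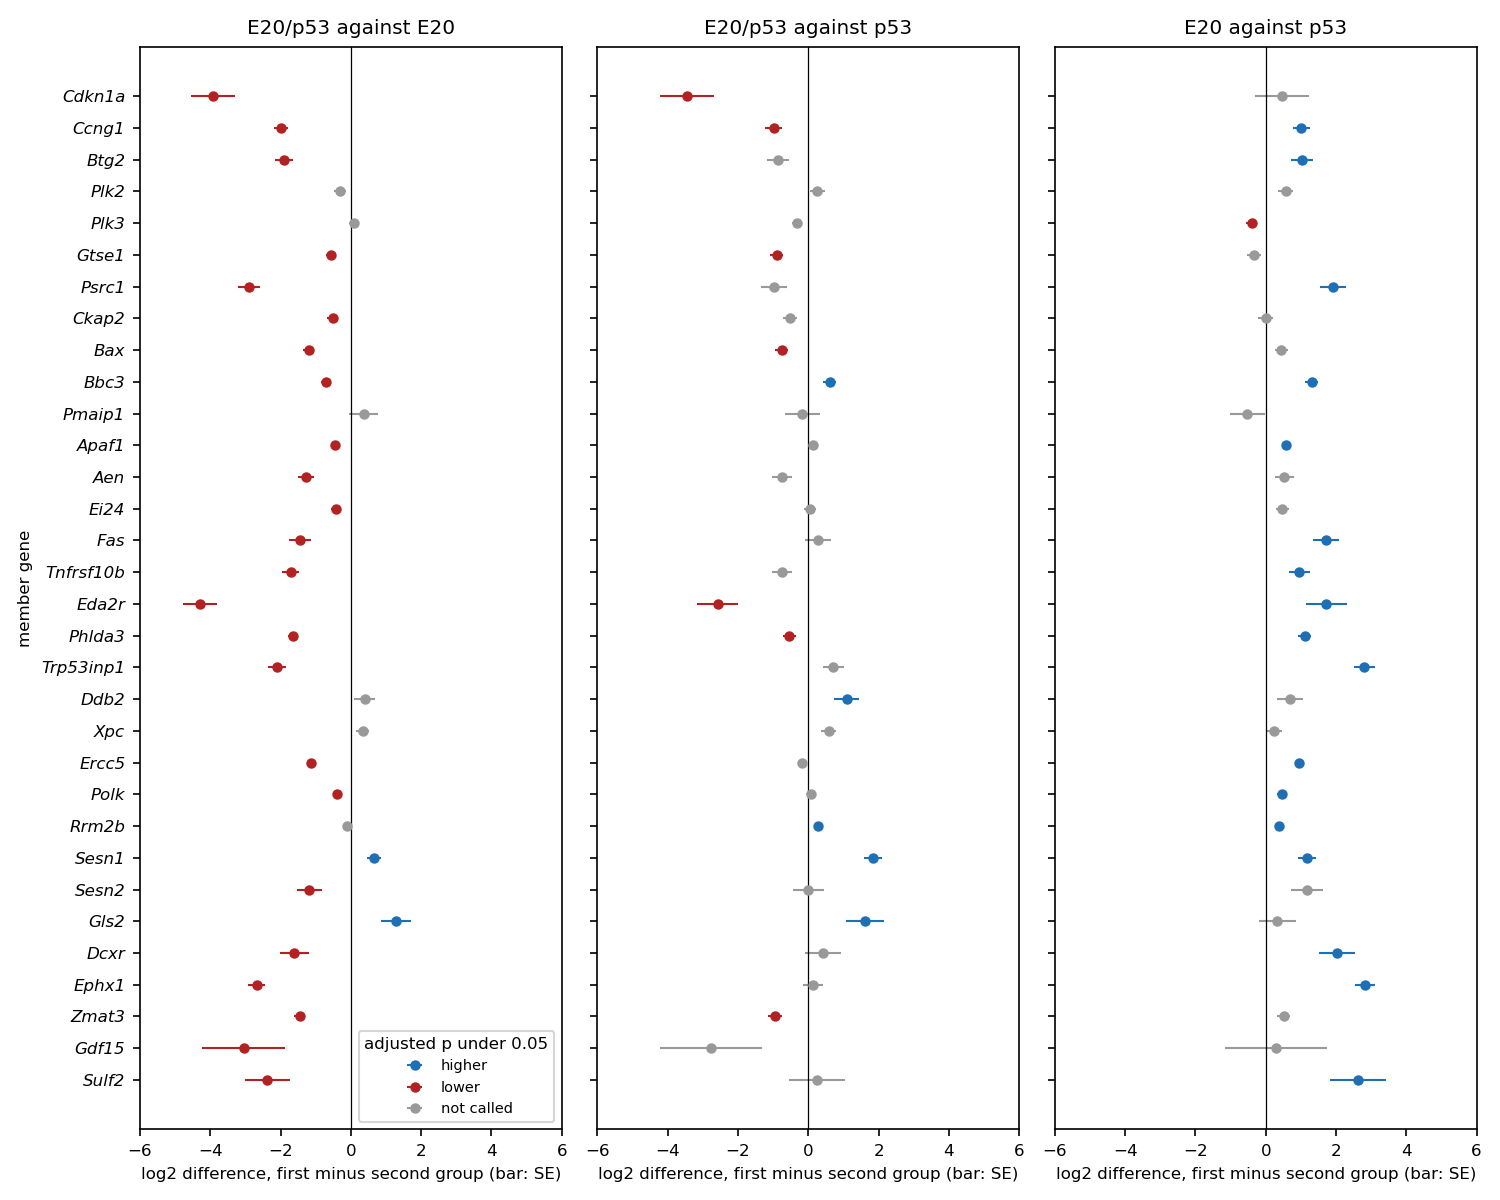
Log2 difference with its SE (bar) for each of the 32 genes in the 3 comparisons within tongue, from limma on 18 libraries. Blue marks genes called higher and red genes called lower in the first group at an adjusted p under 0.05, and grey marks genes not called. 24 genes are lower in E20/p53 than in E20, 7 are lower than in p53, and 17 are higher in E20 than in p53.

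Comparisons with WT join genotype to tissue, since WT is esophagus and the other groups are tongue, and these cannot be told apart. In p53 against WT 11 of 32 members were higher and 7 lower, against 29.3% and 24.9% of all tested genes, which is near the share of all genes in both directions. Cdkn1a was 5.40, 4.77 and 5.05 CPM in WT, on 83 to 87 reads in each library, and higher in p53 by 5.46 ± 0.89 log2 units (SE, adjusted p = 9.8e-05, limma). Gtse1 was 16.02, 15.1 and 12.9 CPM in WT and higher in p53 by 3.14 ± 0.22 log2 units (SE, adjusted p = 8.1e-09, limma). Ckap2, at 34.8 to 37.0 CPM in WT, was higher by 1.74 log2 units (adjusted p = 1.6e-05, limma). Mitosis markers, at 869 to 917 CPM in WT and 2839 to 2984 CPM in p53, moved with them, and their part was not tested.

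Trp53inp1 and the lesion sensors Xpc and Ddb2 were lower in p53. Trp53inp1 was 102 to 117 CPM in WT and lower in p53 by a log2 difference of -2.87 ± 0.36 (SE, adjusted p = 6.3e-06, limma). Xpc was 43.5 to 45.0 CPM in WT and Ddb2 17.5 to 18.3 CPM, with log2 differences in p53 of -1.40 (adjusted p = 2.2e-04, limma) and -2.10 (adjusted p = 5.8e-04, limma). Sesn1 and Bbc3 were also lower in p53, with log2 differences of -1.50 (adjusted p = 4.7e-04, limma) and -1.06 (adjusted p = 4.8e-04, limma).

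In E20 against WT 20 of 32 members were higher, against 29.0% of all tested genes, and 4 were lower, against 26.4%. Cdkn1a was higher by 5.93 ± 0.77 log2 units (SE, adjusted p = 8.0e-06, limma), Psrc1 by 2.93 ± 0.37 (SE, adjusted p = 5.7e-06, limma), Ccng1 by 2.23 ± 0.25 (SE, adjusted p = 1.5e-06, limma), Phlda3 by 1.99 ± 0.19 (SE, adjusted p = 1.9e-07, limma) and Ercc5 by 1.14 ± 0.08 (SE, adjusted p = 5.3e-09, limma). Gtse1 and Ckap2 were higher by 2.80 and 1.74 log2 units (adjusted p = 3.5e-09 and 2.7e-06, limma). Of 12 mitosis genes 12 were also higher in E20 (median log2 difference 1.29), and their part was not tested. The 4 lower members were Plk3, Pmaip1, Ddb2 and Xpc. Plk3, at 32.4 to 34.4 CPM in WT, was lower by a log2 difference of -1.21 ± 0.15 (SE, adjusted p = 3.4e-06, limma). The median log2 difference of the members was 1.10, beside 0.04 over all tested genes. Of the 24 members lower in E20/p53 than in E20, 20 were higher in E20 than in WT, in comparisons that share the E20 libraries. The matching share of all tested genes was not computed, so this count is no result about the members.

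E20/p53 against WT gave 5 higher and 6 lower members, against 26.5% and 21.6% of all tested genes, and a median log2 difference of 0.03 beside 0.05 over all tested genes. Cdkn1a was higher by 2.01 ± 0.77 log2 units (SE, adjusted p = 0.0415, limma). That call rests on E20/p53 4 to 6, since the value was 0.44 (adjusted p = 0.449, limma) without those libraries, and it also ended when any 1 library of WT, p53 or E20/p53 4 to 6 was left out. Gtse1 and Ckap2 were higher by 2.24 and 1.22 log2 units (adjusted p = 6.6e-08 and 1.3e-04, limma). Of 12 mitosis genes 12 were higher there (median log2 difference 1.47), and their part was not tested. The other higher members were Ei24 and Gdf15. Ei24 was not called without E20/p53 libraries 1 to 3 (log2 difference 0.47, adjusted p = 0.0595, limma). Leaving out any 1 library other than E20/p53 1, E20/p53 2 or E20/p53 3 ended the call of Gdf15. Trp53inp1, Btg2, Plk3, Xpc, Ddb2 and Bbc3 were lower, with log2 differences from -2.16 to -0.45. Ddb2 and Bbc3 lost their calls without any 1 WT library, Ddb2 also without any 1 of E20/p53 4, E20/p53 5 or E20/p53 6, and Bbc3 without any 1 of p53 1 to 3, E20 1, E20 6 or E20/p53 1 to 4. Ddb2 was at -0.23 (adjusted p = 0.181, limma) without E20/p53 libraries 4 to 6, and Bbc3 was not called without E20/p53 libraries 1 to 3. Ccng1, Zmat3, Ercc5 and Psrc1 were chosen, after being seen, from the members not called. Their log2 differences were -0.0018 to 0.23, with adjusted p from 0.465 to 0.995 (limma). For Ccng1 and Ercc5 E20/p53 overlapped with WT. For Zmat3 and Psrc1 the WT libraries lay between the E20/p53 sets without overlap. Zmat3 was 49.8 to 50.5 CPM in WT. It was 44.7 to 46.5 CPM in E20/p53 1 to 3 and 54.8 to 56.1 CPM in E20/p53 4 to 6. Psrc1 was 7.34 to 8.01 CPM in WT. It was 11.8 to 13.5 CPM in E20/p53 1 to 3 and 4.53 to 5.66 CPM in E20/p53 4 to 6.

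Relative to E20, most members were lower in E20/p53, but the RNA of p53 itself was not called. Against p53 libraries it was higher in E20, as 17 of 32 members were (log2 difference 1.24, adjusted p = 9.0e-05, limma). Trp53 was 24.9 to 26.7 CPM in WT, 74.8 to 87.7 CPM in p53, 180.2 to 208 CPM in E20, 168 to 190 CPM in E20/p53 1 to 3 and 309 to 314 CPM in E20/p53 4 to 6. E20/p53 did not pass the test against E20 (log2 difference 0.29, adjusted p = 0.13, limma), and the reads of the table do not part the wild type from the mutant allele. Mdm2 moved as most members did. It was 195 to 213 CPM in E20 1 to 3, 109 to 110.1 CPM in E20 4 to 6 and 54.8 to 72.4 CPM in E20/p53, a log2 difference of -1.25 ± 0.17 (SE, adjusted p = 2.5e-05, limma).

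A list of 30 further p53 targets was less uniform. 28 of them were tested, and Spata18 and Trp73 were not. In E20/p53 against E20 9 of the 28 were lower and 5 higher, against 19.6% and 23.0% of all tested genes, with a median log2 difference of -0.11 beside 0.05 over all tested genes. Ptprv, a receptor-type phosphatase gene, was 10.3 to 26.7 CPM in E20 and 0.596 to 1.12 CPM in E20/p53, a log2 difference of -4.22 ± 0.27 (SE, adjusted p = 7.5e-09, limma). Pml, which organises nuclear bodies, was 134 to 198 CPM in E20 and 44.4 to 67.7 CPM in E20/p53, with a log2 difference of -1.56 ± 0.13 (SE, adjusted p = 1.6e-07, limma). Pltp, a phospholipid transfer protein, had -0.89 ± 0.09 (SE, adjusted p = 1.0e-06, limma). Polh, another polymerase for synthesis past lesions, went the other way, at 65.4 to 74.3 CPM in E20/p53 and 42.6 to 48.1 CPM in E20, a log2 difference of 0.63 ± 0.05 (SE, adjusted p = 1.3e-07, limma). In E20/p53 against p53 7 of the 28 were higher and 9 lower, against 12.9% of all tested genes in each direction. In E20 against p53 7 were higher and 2 lower, against 14.5% and 16.4%.

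Exons of some members overlap those of other genes in GENCODE M21, and the strand setting of the counting is not stated. Bax overlaps Gm45808 and Ephx1 overlaps the pseudogene Gm36961 on the same strand. Ddb2, Gls2, Plk3 and Sulf2 overlap Acp2, Spryd4, Tctex1d4 and Ncoa3 on the other strand, and Cdkn1a, Ei24 and Rrm2b overlap noncoding models. The levels of these 9 members are uncertain to the extent that reads of the other gene were counted with them.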

How the data were processed

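The authors deposited log2 values, and 100% of them gave whole reads (tolerance 0.001) when read as the log2 of reads with 1 added, less the log2 of a library total scaled to 0.939 to 1.12 times the reads. Per the submitters' processing notes, bcl2fastq 1.8.4, Trimmomatic, featureCounts and the build mm10 were used, and per the labels an mRNA kit that keeps strand. Aligner, annotation and scaling method: not given in the sources used here. CPM was computed as reads over the scaled total.

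limma 3.58.1 (R 4.3.3) was fitted with a mean-variance trend to the deposited values of all 18 libraries with 4 group means. The 4 groups share 1 spread per gene, which includes the gap between the sets of E20 and of E20/p53. WT and p53 have 1 set each, and their comparison draws on that spread too. For Cdkn1a in p53 against WT the adjusted p was 9.8e-05, and 1.8e-07 without E20/p53 libraries 1 to 3 (limma). Genes were tested with at least 3 libraries at 0.635 CPM (10 reads at the median depth) and at least 15 reads in all, and an adjusted p under 0.05 was called. Differences are on the scale with 1 read added, which understates changes of low genes. The fit was tested on simulated libraries drawn as independent replicates without sets of 3. That test therefore does not give the error rate of the fit on libraries that lie in sets. Alternatives are in the closing section. All members are named with levels. By plan, statistics are given for called members in E20/p53 against E20 and, elsewhere, for Cdkn1a and at most 8 called members by adjusted p. Beyond the plan, values are given for all uncalled members in E20/p53 against E20. Plk3 in E20 against p53, and Ccng1, Zmat3, Ercc5, Psrc1 and Bbc3 in E20/p53 against WT, were added after being seen. Listed genes outside the members are limited to 4 a comparison besides Trp53 and Mdm2, and other genes and values, such as Xist, were chosen after being seen. The members and lists were chosen with earlier results of these data known. Markers of endothelium (4 genes) summed to 1.05 to 4.66 CPM and of leukocytes (5 genes) to 13.7 to 16.6 CPM in E20 1 to 3 and 0.373 to 2.60 CPM elsewhere.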

Additional observations from a re-analysis of the deposited data

Results flagged for a closer look

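For each member the 6 libraries of E20 and of E20/p53 were examined for 1 library far from the others by Dixon's criterion. Of 64 groups of libraries 1 passed. The rate of about 1 in 20 by chance holds for libraries in a single cluster. Here the sets of 3 lay apart for most members, where a single library can hardly pass, so the count cannot be read against that rate. Ercc5 in E20/p53 library 3 was 18.71 CPM, and its gap to the nearest library was 0.648 of the range of the 6 libraries. The lowest E20 library for this gene was at 41.5 CPM.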

How the results depend on the processing

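Over all 12 counts of members called, log2 of CPM plus 1 kept every count within 1.5 times, and no filter and median scaling did so for 11, with the 1 member lower in E20 against p53 going to 0 under each. On 6 set means 0 members were called in either direction in any comparison. Among all tested genes those fits called 0 in each comparison within tongue. They called 1 in p53 against WT, 8 in E20 against WT and 1 in E20/p53 against WT. In E20/p53 against E20 the 2 higher members were 1 with the 2 groups alone, 0 without E20/p53 libraries 1 to 3, 4 without E20/p53 libraries 4 to 6 and 1 at a 2-fold minimum. In E20/p53 against p53 the 5 higher members were 2 with the 2 groups alone and 2 with tongue libraries alone, 10 with the replicate block, 8 without either E20/p53 set and 3 at a 2-fold minimum. The 7 lower members were 12 without either E20 set, 13 without E20/p53 libraries 4 to 6 and 2 at a 2-fold minimum. In E20 against p53 the 1 lower member was 3 without E20 libraries 1 to 3 and 0 without E20 libraries 4 to 6, with the 2 groups alone, with tongue libraries alone, with the replicate block and at a 2-fold minimum. In p53 against WT the 11 higher members were 7 at a 2-fold minimum, and the 7 lower were 14 with the 2 groups alone and 11 without either E20/p53 set. In E20/p53 against WT the 5 higher members were 10 without E20/p53 libraries 1 to 3, and the 6 lower were 11 without E20/p53 libraries 4 to 6. Leaving out 1 library at a time gave, higher and then lower, 1 to 2 and 22 to 23 in E20/p53 against E20, 1 to 7 and 5 to 9 in E20/p53 against p53, 12 to 19 and 0 to 1 in E20 against p53, 10 to 12 and 6 to 7 in p53 against WT, 20 to 21 and 4 to 4 in E20 against WT, and 3 to 7 and 4 to 7 in E20/p53 against WT. Signs turned in E20/p53 against E20 without E20/p53 libraries 1 to 3 for Plk2 (log2 0.13), Plk3 (-0.0023), Xpc (-0.0006), Gdf15 (0.11), Pmaip1 (-0.28) and Ddb2 (-0.38), and without E20 libraries 4 to 6 for Plk3 (-0.17) and Pmaip1 (-0.57). Plk3 ran from -0.0038 to 0.14 with 1 library left out, and Cdkn1a in E20 against p53 was -0.40 without E20 libraries 1 to 3. The cause was not tested in any of these. Same-numbered libraries of different groups did not deviate together (21 pairs, r from -0.054 to 0.074), so the replicate block pairs libraries by number alone. Depth of 14592044 to 18176060 reads leaves genes near the filter, such as Gls2, on few reads.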
